A study of Mus musculus with 6 samples.

Results

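The 10 genes described here are the angiopoietin and apelin ligands Angpt1, Angpt2 and Apln, the receptors Tek, Tie1 and Aplnr, and the endothelial genes Pecam1, Cdh5, Vwf and Nos3. They were chosen by symbol and matched by Ensembl identifier, and they make up 10 of the 38293 genes in a table of raw read counts. RNA-seq was performed on heart tissue in 3 WT and 3 Zeb2 cKO libraries at 14 days after permanent occlusion of the left anterior descending artery, on a backcrossed C57BL/6J background. By the study's methods the mice were adult males, the WT animals were Zeb2 fl/fl mice and thus carried the floxed Zeb2 alleles as well, and the Zeb2 cKO animals had in addition a Cre recombinase under the Myh6 promoter, which is active in cardiomyocytes. The labels number the replicates without naming mice, and by the study's methods sample numbers stand for biological replicates. The tissue came from the border of the infarct by the sample labels and from the remote zone by the methods. The comparison asks whether deletion of Zeb2 in cardiomyocytes goes along with different levels of vessel genes in the infarcted heart. In a tissue sample, fewer cells of a type and less RNA per cell cannot be told apart.

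Angiopoietin 1, encoded by Angpt1, is made mainly by cells around the vessel and activates the tyrosine kinase receptor TIE2, encoded by Tek, which keeps endothelial cells quiescent. Angiopoietin 2, encoded by Angpt2, is released from endothelial cells and can counteract this signal, and TIE1 is a related receptor with no established ligand of its own that modulates TIE2. Apelin, encoded by Apln, is a peptide that acts on the G protein-coupled receptor APLNR in endothelial cells and cardiomyocytes and is linked to vessel sprouting and contractility. PECAM1 and VE-cadherin, encoded by Cdh5, are adhesion molecules of endothelial junctions, von Willebrand factor (Vwf) is stored in endothelial Weibel-Palade bodies and in platelets, and Nos3 encodes endothelial nitric oxide synthase.

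ZEB2 is a zinc finger repressor that binds E-box sequences containing CACCT, so the region before the start site was searched for these letters on both strands. The RefSeq table used here (build GRCm38.p6) held promoters for 3 of the 10 genes, Apln, Tek and Tie1, and had no entry for Angpt1, Angpt2, Aplnr, Pecam1, Cdh5, Vwf and Nos3. In a window from 250 bases before to 50 bases after the start, CACCT was found in all 3, and in 51.9% of the 32851 promoters of the table. The longer E-box CACCTG, which contains CACCT, was found in 0 of the 3 and in 20.2% of all promoters. The Tie1 match lay 108 bases before its RefSeq start. That start lies inside Tie1 as annotated in Gencode M21 (118471191 to 118490061, minus strand). The match also falls inside that annotated gene rather than upstream of it. The 250 bases before the start of Apln (chrX:48034854-48035103, minus strand) and of Tek (chr4:94739039-94739288, plus strand) are shown to place the matches in a ligand and a receptor gene, 5′ to 3′ along the gene, with capitals for CACCT or its reverse complement AGGTG.
Apln: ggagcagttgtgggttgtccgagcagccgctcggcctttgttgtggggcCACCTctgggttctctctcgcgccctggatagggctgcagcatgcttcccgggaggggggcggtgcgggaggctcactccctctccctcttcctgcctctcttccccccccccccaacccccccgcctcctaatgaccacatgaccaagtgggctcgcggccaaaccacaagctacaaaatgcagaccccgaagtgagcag
Tek: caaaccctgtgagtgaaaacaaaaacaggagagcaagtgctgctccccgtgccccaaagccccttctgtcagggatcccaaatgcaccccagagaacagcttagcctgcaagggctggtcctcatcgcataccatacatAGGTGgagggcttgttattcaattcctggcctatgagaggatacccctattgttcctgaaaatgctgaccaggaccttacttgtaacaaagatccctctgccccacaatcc
The match lay 201 bases before the start in Apln and 111 bases before it, on the opposite strand, in Tek. A match of letters is a description of the sequence, and binding was not measured in these data.

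Total counts were between about 37288200 and 51136300 per library, of which about 14301200 to 19024400 lay outside mitochondrially encoded genes. Levels are given as CPM, read counts scaled to an equal library size with the TMM method of edgeR, and 14746 genes passed edgeR's filter on low counts. WT replicate 2 stood apart from the other libraries. It was the highest or the lowest of the 6 libraries in 69.8% of the tested genes, against 33.5% and 18.8% for WT replicates 1 and 3 and 34.3%, 23.9% and 19.7% for Zeb2 cKO replicates 1, 2 and 3. The summed level of 10 fibroblast markers was 9794 CPM in WT replicate 2 and between 1733 and 2376 CPM in the other 5 libraries, that of 13 macrophage markers was 956 against 248 to 343 CPM, and that of 10 cardiomyocyte markers was 35812 against 56353 to 68904 CPM. Fold changes of the 10 genes are therefore given with and without this library. Zeb2, which the Cre recombinase deletes in cardiomyocytes and which other cells of the tissue also express, was at 61.3, 116 and 71.9 CPM in WT and at 59.6, 72.6 and 66.5 CPM in Zeb2 cKO libraries. The groups overlapped, and the log2 fold change of Zeb2 was -0.33 with WT replicate 2, the high library, and -0.0058 without it.

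For none of the 10 genes was a difference between Zeb2 cKO and WT hearts detected beyond the spread between libraries. All 10 passed the filter, with at least 89 counts in every library, and 0 of them had an adjusted p under 0.05 (quasi-likelihood test of edgeR, adjusted by Benjamini-Hochberg over all tested genes, adjusted p between 0.957 and 0.999), as did 0% of all tested genes. The Wald test of DESeq2 called 0 of the 10, and 1 gene of the whole table. At an unadjusted p under 0.05, 0 of the 10 were called, where 1.9% of all tested genes (280) were, 0.861% lower and 1.04% higher in Zeb2 cKO hearts. Without WT replicate 2 it was again 0 of the 10, and 2.63% of all tested genes, 1.08% lower and 1.55% higher, with 0% at an adjusted p under 0.05. The groups overlapped in each of the 10 genes, and they did not overlap in 6.36% of all tested genes, 2.97% lower and 3.39% higher. Among 10 genes, 0 without overlap cannot be told apart from that share. Exact permutation tests on log2 CPM gave two-sided p-values between 0.2 and 0.9, and 3 libraries against 3 cannot give a p under 0.1. Estimated log2 fold changes, Zeb2 cKO over WT, were above 0 in 7 genes and below 0 in 3, where 48.6% of all tested genes were above 0, with a median of 0.15 beside -0.0069 over all tested genes. Without WT replicate 2 they were above 0 in 6 genes and below 0 in 4, where 50.9% of all tested genes were above 0, with a median of 0.0086.

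**Figure D1:**
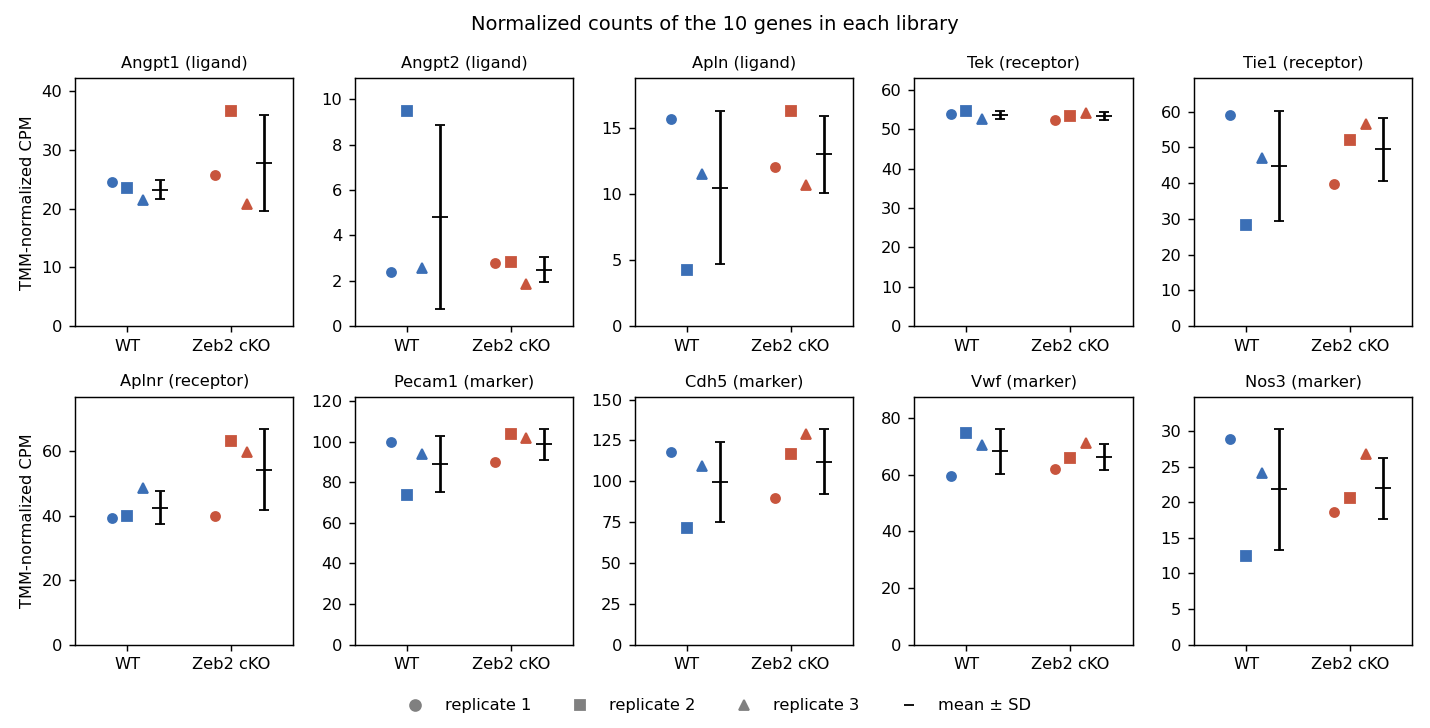
TMM-normalized CPM of each of the 10 genes (y axis, from 0) in the 3 WT and 3 Zeb2 cKO libraries, with marker shape for the replicate and a black bar for mean ± SD. The groups overlap in every panel, and WT replicate 2 (blue square) is the highest library for Angpt2, Tek and Vwf and the lowest for Apln, Tie1, Pecam1, Cdh5 and Nos3.

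Among the ligands, Angpt2 had the largest estimated change and the widest spread. Angpt2 (ENSMUSG00000031465, GRCm38 chromosome 8, 18690263 to 18741562, minus strand) was at 2.36, 9.50 and 2.58 CPM in WT replicates 1, 2 and 3 and at 2.78, 2.83 and 1.86 CPM in those of Zeb2 cKO. A single library, WT replicate 2, was high, and the other 5 libraries lay within 1.86 to 2.83 CPM. Group levels were 4.81 ± 4.06 CPM in WT and 2.49 ± 0.546 CPM in Zeb2 cKO hearts (mean ± SD, n = 3 per genotype). The log2 fold change was -0.96 with a standard error of 0.56 and a 95% interval from -2.28 to 0.36. Without WT replicate 2 it was 0.01, with an interval from -0.52 to 0.54. These levels rest on 89 to 139 counts in 5 libraries and on 417 counts in WT replicate 2.

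Angpt1 (ENSMUSG00000022309, chromosome 15, 42424723 to 42676977, minus strand) was at 24.6, 23.6 and 21.5 CPM in WT and at 25.7, 36.7 and 20.8 CPM in Zeb2 cKO libraries. The WT libraries lay close together, while Zeb2 cKO replicates 2 and 3 were the highest and the lowest of the 6. Its log2 fold change was 0.25 (standard error 0.21, 95% interval -0.25 to 0.76). It was 0.27 without WT replicate 2, 0.0034 without Zeb2 cKO replicate 2 and 0.42 without Zeb2 cKO replicate 3. An antisense gene, Gm17473, covers 14.2% of the Angpt1 exons on the other strand. Gm17473 had 4 to 24 counts per library, beside 826 to 1591 for Angpt1, and the methods do not state whether counting used the strand.

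Apln (ENSMUSG00000037010, chromosome X, 48025146 to 48034853, minus strand), whose upstream sequence is printed above, was at 15.7, 4.26 and 11.5 CPM in WT and at 12.1, 16.3 and 10.7 CPM in Zeb2 cKO libraries. WT replicate 2 was the low library, at 0.321 of the mean of the other 5, the opposite of its position for Angpt2, where it was at 3.83 times that mean. The log2 fold change of Apln was 0.31 (standard error 0.44, 95% interval -0.72 to 1.35), and -0.06 (interval -0.55 to 0.42) without WT replicate 2.

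Of the receptors, Aplnr had the smallest unadjusted p of the 10 genes, 0.123 by the quasi-likelihood method of edgeR. Aplnr (ENSMUSG00000044338, chromosome 2, 85136225 to 85139923, plus strand) was at 39.3, 39.7 and 48.5 CPM in WT and at 39.8, 63.1 and 59.8 CPM in Zeb2 cKO libraries. Zeb2 cKO replicates 2 and 3 lay above every WT library and Zeb2 cKO replicate 1 lay among them. Aplnr had a log2 fold change of 0.35 with a standard error of 0.20 and a 95% interval from -0.12 to 0.83 (exact permutation test, two-sided p = 0.2). It was 0.31 without WT replicate 2, and over all left-out libraries it ran from 0.23 to 0.53. With Zeb2 cKO replicate 1 left out, its unadjusted p was 0.0177 and its adjusted p 0.9995 by the quasi-likelihood method of edgeR. In that fit 75 of 15009 tested genes were higher at an unadjusted p under 0.05. A change from 0.919-fold to 1.77-fold lay within the interval.

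Tek was the steadiest of the 10 genes. Tek (ENSMUSG00000006386, chromosome 4, 94739289 to 94874976, plus strand) was at 53.8, 54.7 and 52.7 CPM in WT and at 52.4, 53.5 and 54.2 CPM in Zeb2 cKO libraries. All 6 libraries, WT replicate 2 included, lay within a coefficient of variation of 1.66%, against 79.0% for Angpt2. The Poisson counting error of Tek was 1.85% to 2.22% per library, so its spread was no larger than counting error. The lead of WT replicate 2 over Zeb2 cKO replicate 3, 54.7 against 54.2 CPM, also lay within that error. The log2 fold change was -0.01 (standard error 0.10), and its 95% interval from -0.25 to 0.23 corresponds to 0.839-fold to 1.18-fold. Without WT replicate 2 it was 0.0058.

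Tie1 (ENSMUSG00000033191, chromosome 4, 118471191 to 118490061, minus strand) was at 59.0, 28.3 and 47.0 CPM in WT and at 39.7, 52.1 and 56.6 CPM in Zeb2 cKO libraries. WT replicate 2 was the lowest, at 0.556 of the mean of the other 5 libraries, while Tek in the same library was at 1.03 of that mean. The log2 fold change of Tie1 was 0.14 (standard error 0.28, 95% interval -0.51 to 0.80), and without WT replicate 2 it was -0.10 (interval -0.50 to 0.30).

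**Figure D2:**
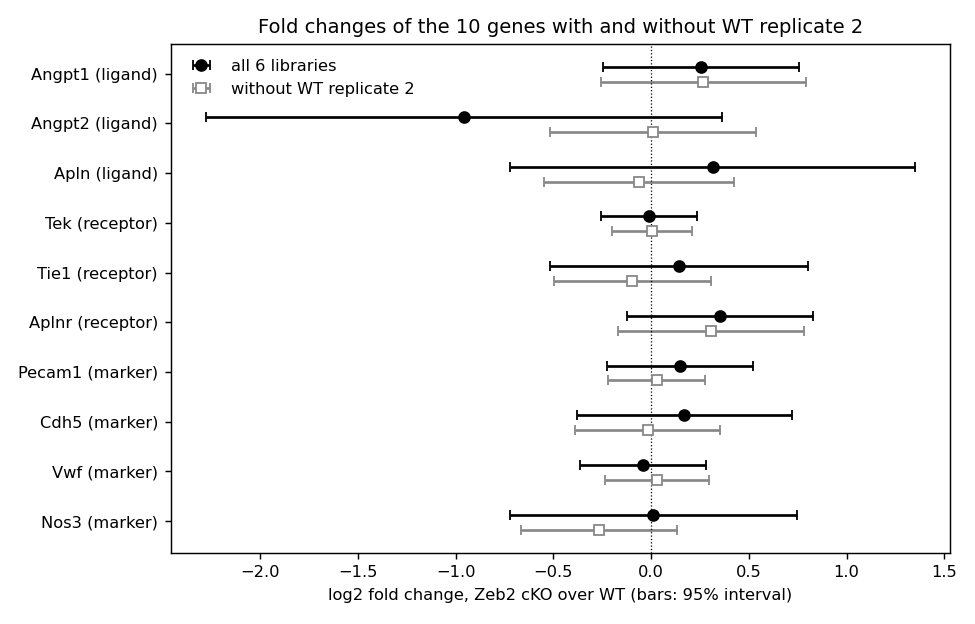
Log2 fold changes of the 10 genes, Zeb2 cKO over WT (x axis), with 95% intervals from edgeR's quasi-likelihood fit, for all 6 libraries (black) and without WT replicate 2 (grey). All intervals include 0, and the estimate for Angpt2 moves from -0.96 to 0.01 when that library is left out.

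The 4 endothelial markers did not all place the libraries in the same order. Pecam1 (ENSMUSG00000020717, chromosome 11, 106654217 to 106750628, minus strand), which platelets and leukocytes also express, was at 99.9, 73.6 and 93.9 CPM in WT and at 90.1, 104 and 102 CPM in Zeb2 cKO libraries. Its WT library 2 was the lowest and the others spanned 90.1 to 104 CPM. For Pecam1 the log2 fold change was 0.15 (standard error 0.16), with a 95% interval from -0.23 to 0.52, that is from 0.855-fold to 1.43-fold, and without WT replicate 2 it was 0.03 (interval -0.22 to 0.28).

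Cdh5 (ENSMUSG00000031871, chromosome 8, 104101625 to 104144511, plus strand) was at 118, 71.5 and 109 CPM in WT and at 89.9, 117 and 129 CPM in Zeb2 cKO libraries. WT replicate 2 and Zeb2 cKO replicate 1 were the lower libraries, so that each genotype had 1 low and 2 higher libraries. For Cdh5 the log2 fold change was 0.17 (standard error 0.23, 95% interval -0.38 to 0.72), and -0.02 without WT replicate 2.

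Vwf (ENSMUSG00000001930, chromosome 6, 125546774 to 125686679, plus strand) was at 59.6, 74.7 and 70.8 CPM in WT and at 62.3, 65.9 and 71.2 CPM in Zeb2 cKO libraries. Here WT replicate 2 was the highest library, at 1.13 times the mean of the other 5, where Pecam1 was at 0.751 and Cdh5 at 0.636 of it. For Vwf the estimate was -0.04 on the log2 scale (standard error 0.14, 95% interval -0.36 to 0.28), and 0.03 without WT replicate 2. Platelets carry Vwf RNA as well, and the summed level of 10 platelet markers was 7.09 to 11.9 CPM in WT and 8.90 to 10.9 CPM in Zeb2 cKO libraries, with 6 of the 10 below the filter on low counts and none at 0 in every library.

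Nos3 (ENSMUSG00000028978, chromosome 5, 24364810 to 24384474, plus strand) was at 28.9, 12.4 and 24.1 CPM in WT and at 18.6, 20.6 and 26.7 CPM in Zeb2 cKO libraries. The group means were nearly equal, 21.8 ± 8.46 and 21.9 ± 4.25 CPM (mean ± SD, n = 3 per genotype), and the WT group held both the highest and the lowest library. For Nos3 the estimate was 0.01 on the log2 scale (standard error 0.31, 95% interval -0.72 to 0.74), and without WT replicate 2 it was -0.27 (interval -0.67 to 0.13). Antisense transcripts of Gm15587 and of Atg9b cover 25.2% and 7.12% of the Nos3 exons. Gm15587 had 0 to 2 counts and Atg9b 15 to 35 counts per library, beside 546 to 1436 for Nos3.

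WT replicate 2 was the highest of the 6 libraries for 3 of the 10 genes and the lowest for 5, which is 8 of 10 where it held such a position in 69.8% of all tested genes. A position at the extreme in this library was thus about as frequent among the 10 genes as in the whole table. For Tek, its place as the highest library lay within counting error. The direction differed between genes of the same cell type, since Vwf and Angpt2 were high and Pecam1, Cdh5, Tie1 and Nos3 were low in it. The high fibroblast and macrophage marker levels of this library moved with these values, and their part in them was not tested.

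Per length of exon, Cdh5 was the most abundant of the 10 genes, with 25.1 ± 5.04 CPM per kilobase over the 6 libraries (SD, n = 6). Next came Pecam1 with 15.1 ± 1.81, Aplnr with 13.1 ± 2.90, Tek with 11.4 ± 0.189 and Tie1 with 9.58 ± 2.35 CPM per kilobase. Aplnr exceeded Tek in 3 of the 6 libraries, so these neighbours did not differ beyond their spread, and Tek exceeded Tie1 in 4 of 6. A lower tier held Nos3 with 5.29 ± 1.45, Angpt1 with 4.89 ± 1.11, Vwf with 4.20 ± 0.362 and Apln with 3.74 ± 1.38 CPM per kilobase, each above the next in 3 to 5 libraries. Angpt2 was the lowest with 0.990 ± 0.782 CPM per kilobase. The receptors were thus all above the ligands in mean level per kilobase. Vwf and Pecam1 have transcripts that differ much in length, and with the longest transcript in place of all exons, a choice made after seeing the data, Pecam1 ranked 1 with 27.3 CPM per kilobase, Cdh5 ranked 2 with 26.5 and Vwf ranked 6 with 7.63.

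**Figure D3:**
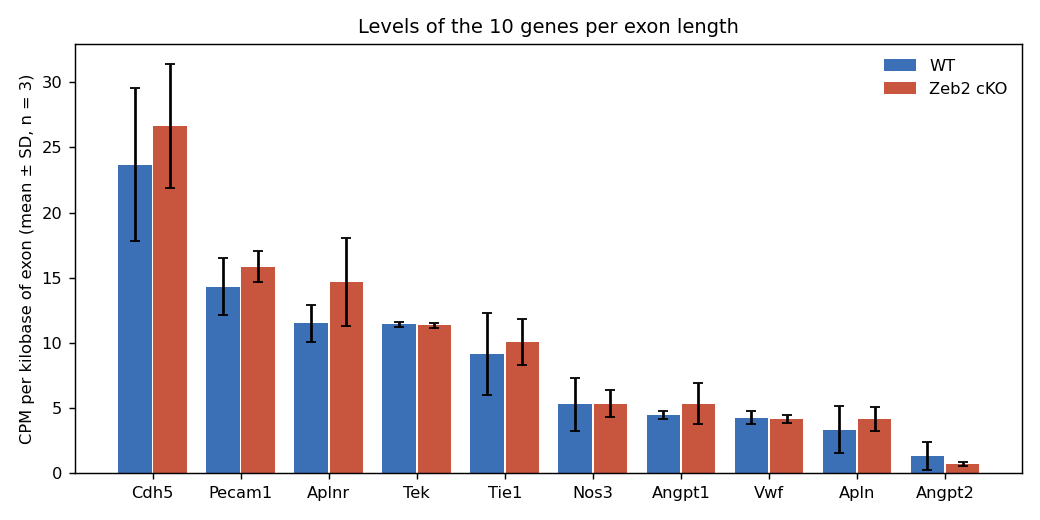
CPM per kilobase of annotated exon (y axis, from 0) of the 10 genes in WT and Zeb2 cKO hearts, as mean ± SD of 3 libraries each. Cdh5 is at the top with 23.7 in WT and 26.6 in Zeb2 cKO hearts, and Angpt2 at the bottom with 1.30 and 0.675.

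Ratios within a library do not depend on its scaling, and they were compared without a test. The ratio of Angpt2 to Angpt1, in CPM, was 0.0960, 0.403 and 0.120 in WT and 0.108, 0.0773 and 0.0897 in Zeb2 cKO libraries. WT replicate 2 again stood alone, and the other WT libraries bracketed Zeb2 cKO replicate 1. On the log2 scale the ratio was -2.58 ± 1.11 in WT and -3.46 ± 0.24 in Zeb2 cKO hearts (mean ± SD, n = 3 per genotype), a difference of -0.88 that was -0.24 without WT replicate 2.

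The ratio of Apln to Aplnr was 0.400, 0.107 and 0.238 in WT and 0.303, 0.259 and 0.180 in Zeb2 cKO libraries. All Zeb2 cKO values lay within the range of the WT values, and the log2 difference of 0.16 was -0.35 without WT replicate 2. For Tek to Tie1 the ratio was 0.913, 1.93 and 1.12 in WT and 1.32, 1.03 and 0.958 in Zeb2 cKO libraries. The ratio of Tek to Tie1 lay between 0.913 and 1.32 in 5 libraries and was highest in WT replicate 2, and its log2 difference of -0.20 was 0.11 without that library.

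**Figure D4:**
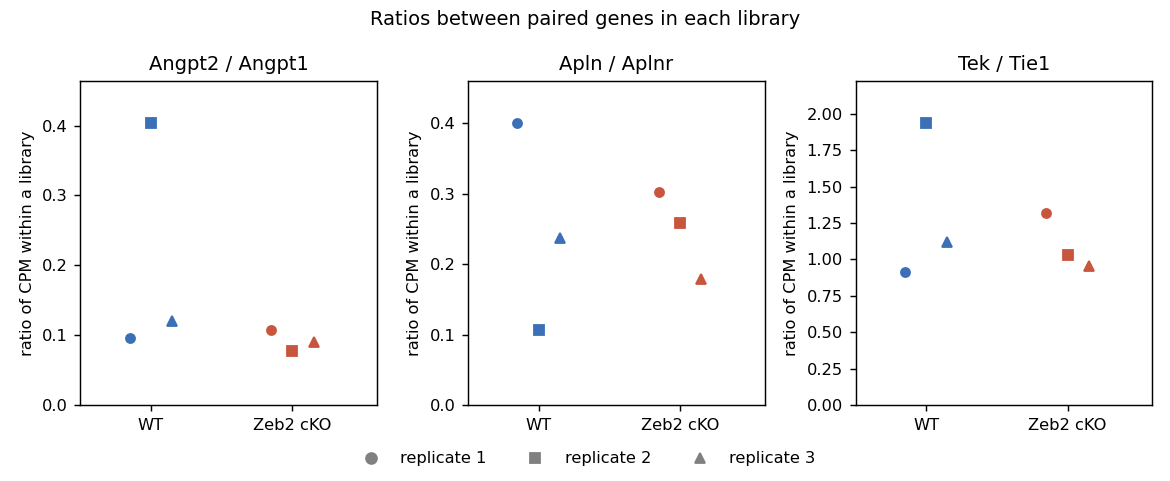
Ratios of CPM within each library (y axes, from 0) for Angpt2 to Angpt1, Apln to Aplnr and Tek to Tie1 in WT and Zeb2 cKO hearts, with marker shape for the replicate. WT replicate 2 is at 0.403, 0.107 and 1.93 and lies outside the range of the other 5 libraries in each panel.

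To set the ligands and receptors against the level of other endothelial genes, the mean log2 CPM of 25 other pan-endothelial genes was subtracted in each library. Aplnr was then at 0.42, 0.78 and 0.78 in WT and at 0.69, 1.12 and 1.01 in Zeb2 cKO libraries on the log2 scale, a difference of 0.28 with overlapping groups, and 0.34 without WT replicate 2. Apln differed by 0.44, and by -0.01 without WT replicate 2. The differences of Angpt1 and Tie1 were 0.17 and 0.14, and 0.28 and -0.05 without WT replicate 2. That of Angpt1 was -0.02 without Zeb2 cKO replicate 2 and 0.41 without Zeb2 cKO replicate 3. Tek was at 1.01 ± 0.20 in WT and 0.95 ± 0.12 in Zeb2 cKO hearts (mean ± SD, n = 3 per genotype). Angpt2 differed by -0.71, and by 0.04 without WT replicate 2. With that list mean as a covariate in the edgeR fit, the log2 fold changes of Aplnr and Angpt2 were 0.27 and -0.44. Genes of the list moved in opposite directions in WT replicate 2. Plvap was at 15.7 CPM there against 3.89 to 5.04 CPM in the other libraries, and Kdr at 66.9 against 123 to 140 CPM. Whether the list mean follows the amount of endothelium was not tested.

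Of the other pan-endothelial genes, all 25 were tested, 0 had an unadjusted p under 0.05 and 0 an adjusted p under 0.05 by the quasi-likelihood method of edgeR. Their median log2 fold change was 0.08, with 15 genes above and 10 below 0, and it was -0.02 without WT replicate 2. Their summed level was 918 to 1123 CPM in WT and 977 to 1142 CPM in Zeb2 cKO libraries. The most abundant per length were Cd34, a sialomucin also found on progenitor and stromal cells, at 155 ± 28.5 and 143 ± 19.4 CPM, and Egfl7, a secreted endothelial factor, at 62.9 ± 19.1 and 71.8 ± 9.38 CPM (mean ± SD, n = 3 per genotype). A single gene of the list, Plvap of fenestrated endothelium, did not overlap between the groups, where 2.97% of all tested genes were lower without overlap. Plvap, named after its values were seen, was at 5.04, 15.7 and 4.77 CPM in WT and at 4.14, 3.89 and 4.56 CPM in Zeb2 cKO libraries. WT replicate 2 was far above the rest, and the log2 fold change of Plvap was -1.02 with it and -0.22 without it. In the fit without this library, 1 gene of the list, S1pr1, a sphingosine phosphate receptor, was lower at an unadjusted p under 0.05 (-0.44), beside 1.08% of all tested genes.

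In the angiopoietin-Tie pathway, 15 of 16 further genes were tested, 7 with a log2 fold change above 0 and 8 below it, and 0 had an unadjusted p under 0.05 in either direction. Their median was -0.0022, and 0.006 without WT replicate 2. The most abundant per length were Itgb1, an integrin subunit, at 258 ± 43.6 and 219 ± 33.5 CPM, and Akt1, a kinase downstream of TIE2, at 73.3 ± 22.2 and 78.9 ± 8.44 CPM in WT and Zeb2 cKO hearts (mean ± SD, n = 3 per genotype). In the apelin pathway 19 of 20 genes were tested, with 7 above and 12 below 0, a median of -0.08 and again 0 with an unadjusted p under 0.05. Its most abundant genes per length were the hypoxia-inducible factors Hif1a and Epas1, with log2 fold changes of -0.15 and 0.10 (standard errors 0.17 and 0.21). With WT replicate 2 left out these were -0.01 for Hif1a and -0.09 for Epas1, and the median of the apelin list was -0.01. Apela, the other ligand of APLNR, had no counts in any library.

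Of 15 tested nitric oxide genes, 1 had an unadjusted p under 0.05, beside 1.9% of all tested genes. The median log2 fold change of the list was 0.02, and -0.04 without WT replicate 2. Nos1, the neuronal synthase, was at 0.372, 0.228 and 0.469 CPM in WT and at 1.52, 0.369 and 1.62 CPM in Zeb2 cKO libraries. Zeb2 cKO replicates 1 and 3 were high and replicate 2 lay among the WT libraries. For Nos1 the estimate was 1.72 on the log2 scale (standard error 0.59, unadjusted p = 0.0222 and adjusted p = 0.957 by the quasi-likelihood method of edgeR), and it was 1.49 without WT replicate 2. Cav1, which binds and restrains endothelial nitric oxide synthase, was at 169 ± 43.5 and 191 ± 26.0 CPM (mean ± SD, n = 3 per genotype). In the lists of 15 endothelial junction genes and 10 tested genes of Vwf storage and release, 0 genes had an unadjusted p under 0.05, and the medians were 0.06 and -0.20. With WT replicate 2 left out they were -0.05 and -0.08.

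Endothelial transcription factors, of which 21 of 22 were tested, had a median log2 fold change of -0.09, and -0.02 without WT replicate 2, with 0 genes at an unadjusted p under 0.05. Among vessel types, the median was 0.19 for 10 capillary, -0.21 for 10 arterial, -0.77 for 5 tested venous, -0.36 for 7 lymphatic and -0.09 for 3 tested endocardial genes, each with 0 genes at an unadjusted p under 0.05. These medians without WT replicate 2 were -0.0043, -0.17, 0.03, 0.06 and 0.20. In that fit 1 arterial, 1 capillary and 2 transcription factor genes were lower at an unadjusted p under 0.05, beside 1.08% of all tested genes, and 0 at an adjusted p under 0.05 in edgeR. Named after their values were seen, these were Sox17, which is in both the arterial and the transcription factor list (log2 fold change -0.51), the capillary gene Timp4 (-0.56) and the transcription factor gene Klf4 (-0.53). Several of these genes are also expressed outside endothelium, among them Cd36 in cardiomyocytes and Emp1 in fibroblasts. In WT replicate 2 the capillary genes were at -0.91 and the venous genes at 1.09 in mean log2 CPM relative to the 6 libraries, whereas the 25 pan-endothelial genes were at -0.23.

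Marker levels of other cell types moved with the WT mean through the same library. The median log2 fold change was -0.93 for 10 fibroblast genes and -0.80 for 13 macrophage genes, and it was 0.05 and 0.03 without WT replicate 2. In that fit 1 fibroblast gene, Dpt, named after its values were seen, was higher at an unadjusted p under 0.05 (0.48), beside 1.55% of all tested genes. All genes of these lists had counts. Mural cell genes, which mark the pericytes and smooth muscle cells that make Angpt1, had a median of 0.14, 0.07 without WT replicate 2, and a summed level of 708 to 1065 CPM in WT and 965 to 1071 CPM in Zeb2 cKO libraries. Rgs5, the most abundant of them per length, was at 455 ± 110 and 518 ± 53.4 CPM (mean ± SD, n = 3 per genotype), with overlapping groups. The part of other cell types in the values of the 10 genes was not tested.

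**Figure D5:**
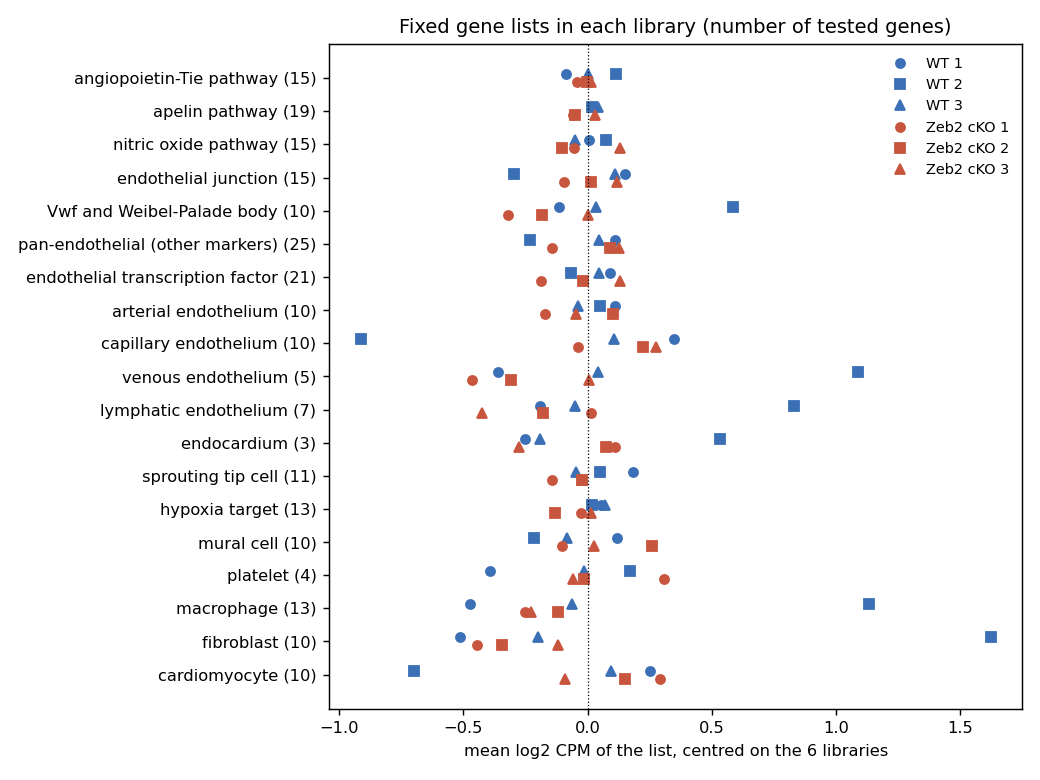
Mean log2 CPM of each gene list, centred on the 6 libraries (x axis), for the 3 WT (blue) and 3 Zeb2 cKO (red) libraries, with the number of tested genes in parentheses. WT replicate 2 (blue square) lies far to the right for fibroblast and macrophage genes and far to the left for capillary and cardiomyocyte genes, while the pan-endothelial list spans -0.23 to 0.13.

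Genes with a pattern most like that of a member were found by the mean absolute difference of centred log2 CPM over the 6 libraries, among all other tested genes. For Cdh5 these were Gpihbp1, Cd93 and Ets1, at 0.0369, 0.0445 and 0.0494. For Tie1 they were Pdzd2, Kank3 and Rasip1, at 0.0192 to 0.0403, and for Nos3 they were Sema7a, Adgrg1 and Pdgfb, at 0.0490 to 0.0594. Angpt2 lay closest to Cd14, Nalcn and Lgi2, at 0.0739 to 0.0966, all of which were highest in WT replicate 2. For Apln the nearest were Grip2, Slc41a3 and Mlf1, at 0.0620 to 0.0778, all lowest in that library. With 6 libraries, of which 1 stands apart, such likeness is a description only.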

How the data were processed

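Heart RNA in 3 WT and 3 Zeb2 cKO libraries was analysed. The authors depleted ribosomal RNA, sequenced stranded single-end libraries, aligned and counted reads per gene of Gencode M4 (GRCm38) with the STAR workflow, and deposited raw counts without normalization. The STAR version, the strand option and the handling of multi-mapping reads are not given in the sources used here. Each column was matched to 1 sample by its label, with 0 columns left over. Replicates of a genotype differed far beyond sampling noise (chi-square per degree of freedom of at least 16.9 over the tested genes).

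From these counts, symbols, coordinates and exon lengths were taken from Gencode M21 (GRCm38) by identifier. Counts were normalized with TMM, filtered with filterByExpr and tested with glmQLFit and glmQLFTest in edgeR 4.0.16 (R 4.3.3), with a prior count of 0.125 and Benjamini-Hochberg adjustment over 14746 genes. 95% intervals came from the fitted standard errors. Log2 CPM for list means used a prior count of 2. DESeq2 1.42.0 and limma 3.58.1 were alternatives, and the study's own DESeq was not run. Exact permutation tests used scipy 1.17.1. Shared stretches of at least 75 bases and 95% identity were searched with BLAST 2.17.0. They were found for Angpt1 and Nos3, with the antisense genes named in the text only. Poisson counting error per library was 1.85% to 2.22% for Tek, no smaller than its coefficient of variation of 1.66%. It was 4.9% to 10.6% for Angpt2, beside 79%. The procedure was also run on simulated data, and no outcome of that run is reported here.

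The 10 genes and the gene lists were chosen with earlier results of these data known. Genes were named by a rule: Zeb2, the 10 members, of each list up to 3 genes with the smallest unadjusted p under 0.05 and the 2 most abundant per length, and the 3 nearest genes of each member, not all of which are printed.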

Additional observations from a re-analysis of the deposited data

How the results depend on the processing

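No member passed an adjusted p of 0.05 in any alternative, with 0 lower and 0 higher, and edgeR and limma-voom called 0 genes of the whole table throughout. DESeq2's Wald test called 1 higher gene, Slc46a2, named after its values were seen. At an unadjusted p under 0.05, 127 genes were lower and 153 higher. Without a filter on low counts these were 326 and 274. With DESeq2 263 were lower and 166 higher, but it was run on 24089 genes against 14746 in the main fit. The filter and the test thus changed together, and their parts cannot be told apart. Leaving out 1 library gave 47 (without Zeb2 cKO replicate 1) to 827 (without WT replicate 1) lower genes. Higher genes ran from 75 to 307, with the same libraries left out. Members at this threshold numbered 0 to 1 in either direction. Angpt2 was lower without WT replicate 1 (log2 fold change -1.28, unadjusted p = 0.0476 from edgeR), beside 827 of 15075 tested genes. Aplnr was higher without Zeb2 cKO replicate 1 (0.53), beside 75 of 15009 tested genes. Without WT replicate 3 and Zeb2 cKO replicates 2 and 3, 257, 51 and 208 genes were lower, and without WT replicate 2, 232 were higher.

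Of 80 estimates for members under settings that kept all libraries, 2 changed sign: Tek without the filter (0.0089) and Nos3 with the endothelial covariate (-0.046). Of 60 with a library left out, 10 did. The ranges were -1.28 to 0.011 for Angpt2, -0.061 to 0.73 for Apln, -0.024 to 0.0058 for Tek, -0.096 to 0.39 for Tie1, -0.018 to 0.31 for Cdh5, -0.13 to 0.031 for Vwf and -0.27 to 0.27 for Nos3. The cause was not tested. Among left-out libraries, the sign of Angpt2, Apln, Tie1 and Cdh5 changed only without WT replicate 2.

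Replicate numbers occur in both groups, but same-numbered libraries deviated from their group means with correlations of 0.088, -0.137 and -0.087, none of the libraries correlated best with its own number, and they share only a number. With the replicate block, 0 genes were called and 100 lower and 147 higher genes had an unadjusted p under 0.05. Depth limits Angpt2 most, with 89 counts in the lowest library.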

Other observations

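Genes of sprouting tip cells and of the response to hypoxia, states in which Apln and Angpt2 are known to be induced, were described in the same way. Of 11 tip cell genes, 4 had a log2 fold change above 0 and 7 below, with a median of -0.17 (-0.12 without WT replicate 2), and 1 had an unadjusted p under 0.05, beside 1.9% of all tested genes. This was Cxcr4, a chemokine receptor also present on leukocytes, at 7.89, 9.39 and 7.47 CPM in WT and 6.30, 7.14 and 6.16 CPM in Zeb2 cKO libraries. The groups did not overlap, and the estimate was -0.34 ± 0.14 (log2 fold change ± standard error) with an adjusted p of 0.957 in edgeR. It was -0.23 without WT replicate 2, where 0 of the 11 tip cell genes had an unadjusted p under 0.05 in edgeR. Of 13 tested hypoxia targets, 4 were above and 9 below 0, with a median of -0.07 (-0.08 without WT replicate 2). Among them 1, Ddit4, had an unadjusted p under 0.05 in edgeR, again beside 1.9% of all tested genes. Ddit4, a stress-induced inhibitor of mTOR signalling, was at 7.19, 4.15 and 4.69 CPM in WT and 2.50, 2.74 and 4.37 CPM in Zeb2 cKO libraries, with overlapping groups and an estimate of -0.73 ± 0.30, at an adjusted p of 0.957 in edgeR and -0.88 without WT replicate 2. Vegfa, the most abundant of the hypoxia targets per length, was at 87.2 ± 27.1 and 96.9 ± 8.38 CPM (mean ± SD, n = 3 per genotype).

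Further genes whose groups did not overlap, named after their values were seen, were Cgnl1 of endothelial junctions (log2 fold change 0.22), the capillary transcription factor Tcf15 (0.64) and the arterial connexin gene Gja4 (-0.23), where 6.36% of all tested genes did not overlap, 2.97% lower and 3.39% higher. Without WT replicate 2 the log2 fold changes of Cgnl1, Tcf15 and Gja4 were 0.14, 0.28 and -0.15. With all libraries they had adjusted p-values of 0.957 by the quasi-likelihood method of edgeR.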
